A study of Homo sapiens with 2 samples.

Results

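The annexin A genes encode proteins that bind negatively charged phospholipids, most of them when calcium rises. The rows of both deposited tables that carry the symbols ANXA1, ANXA2, ANXA3, ANXA4, ANXA5, ANXA6, ANXA7, ANXA9, ANXA10 and ANXA11 were taken, 10 genes of the 56586 listed, with 1 row each. Paired-end RNA sequencing gave their levels for 2 HCT116 libraries; HCT116 is an epithelial line established from a colon cancer, here grown in medium with serum, with no treatment named. The design text calls the libraries, PF and PJ, biological replicates. The letters are not explained, and both libraries form a single group, so there is no treated or control arm. The values are FPKM, fragments per kilobase of transcript relative to all mapped fragments of the library. Each has a deposited confidence bound on either side, taken as 95%. FPKM is a per-length scale, so levels of different genes can be set beside each other. Depth is unknown, no p-value can be had with 1 library on each side, and the genes were chosen with their values in these libraries known, so all that follows is description.

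An annexin consists of a conserved core that docks on the membrane and a variable N-terminal tail that binds partners, often S100 proteins or other small EF-hand proteins. Family members take part in membrane organization, vesicle traffic, exocytosis and the resealing of torn plasma membranes. In gut epithelium several of them line the cell membrane, and ANXA10 is best known from the stomach and from serrated lesions of the colon.

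Most epithelial markers were present in both libraries. Of 11 such markers, 10 reached 1 FPKM in each library, beside 57.3% of protein-coding symbols, VIL1 being the exception. In PJ, ELF3 at 1.02 FPKM and CDH1 at 1.80 were close to that limit, against 76.3 and 21.9 in PF. The 11 summed to 1692 FPKM in PF against 961 in PJ. Of 18 fibroblast, endothelial and immune markers, 2 reached 1 FPKM in each library (COL1A1 and ESAM), while PTPRC, CDH5 and DCN stayed under 0.1 FPKM.

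The sequences below are given as description. The first set compares ANXA2 with its 3 processed pseudogenes, DNA copies of its spliced transcript, because they can compete for the same reads. The stretch is bases 49 to 168 of the ANXA2 coding sequence, counted from 1 at the start codon, from GENCODE release 29 transcripts. Capitals mark bases that differ from ANXA2.
ANXA2: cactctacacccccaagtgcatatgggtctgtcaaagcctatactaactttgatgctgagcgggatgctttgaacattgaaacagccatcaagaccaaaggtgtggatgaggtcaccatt
ANXA2P2: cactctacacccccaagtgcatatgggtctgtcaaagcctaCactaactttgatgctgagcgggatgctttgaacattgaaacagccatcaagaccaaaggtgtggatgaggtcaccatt
ANXA2P1: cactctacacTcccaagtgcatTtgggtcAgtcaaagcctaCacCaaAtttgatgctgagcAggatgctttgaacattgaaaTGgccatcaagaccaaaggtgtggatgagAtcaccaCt
ANXA2P3: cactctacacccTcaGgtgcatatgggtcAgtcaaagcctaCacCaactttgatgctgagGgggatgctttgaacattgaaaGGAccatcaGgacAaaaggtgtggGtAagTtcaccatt
ANXA2P2 differs from ANXA2 at 1 of these 120 bases, T90C, whereas ANXA2P1 differs at 11 and ANXA2P3 at 14. Over the whole coding sequence of 1020 bases, ANXA2P2 has 1004 identical and 16 differing bases, an identity of 98.4%. ANXA2P1 is 93.9% identical over 923 aligned bases and ANXA2P3 92.2% over 1007. The longest run of bases that ANXA2 shares without a mismatch is 221 with ANXA2P2, 87 with ANXA2P1 and 56 with ANXA2P3. Of the 971 possible 50-base windows of the ANXA2 coding sequence, 59.2% occur unchanged in ANXA2P2, and of the 921 windows of 100 bases 31.2% do. Within the family itself the longest run common to any of the 45 pairs of coding sequences is only 18 bases, between ANXA2 and ANXA3.

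The second set shows the 250 bases before the RefSeq start site (GRCh38.p14, on the gene's own strand) of ANXA10 and ANXA9, which missed 1 FPKM in PJ, and of the 2 genes with the highest mean. Capitals mark CG pairs, the sites at which human DNA is methylated.
ANXA10, chr4:168092287-168092536, plus strand: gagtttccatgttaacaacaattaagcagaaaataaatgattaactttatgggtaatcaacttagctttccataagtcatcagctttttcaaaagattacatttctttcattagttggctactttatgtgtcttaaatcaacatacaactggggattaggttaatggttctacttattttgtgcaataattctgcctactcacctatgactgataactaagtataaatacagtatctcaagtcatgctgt
ANXA9, chr1:150982042-150982291, plus strand: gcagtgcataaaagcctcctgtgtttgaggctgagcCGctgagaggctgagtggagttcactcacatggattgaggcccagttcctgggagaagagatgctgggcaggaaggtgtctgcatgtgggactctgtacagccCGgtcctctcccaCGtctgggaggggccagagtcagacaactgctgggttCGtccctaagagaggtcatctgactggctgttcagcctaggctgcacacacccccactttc
ANXA1, chr9:73151615-73151864, plus strand: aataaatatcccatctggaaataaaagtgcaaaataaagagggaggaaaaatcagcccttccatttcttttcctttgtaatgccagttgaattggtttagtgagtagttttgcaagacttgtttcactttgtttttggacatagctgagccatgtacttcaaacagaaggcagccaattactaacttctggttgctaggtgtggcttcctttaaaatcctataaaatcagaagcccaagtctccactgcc
ANXA2, chr15:60397987-60398236, minus strand: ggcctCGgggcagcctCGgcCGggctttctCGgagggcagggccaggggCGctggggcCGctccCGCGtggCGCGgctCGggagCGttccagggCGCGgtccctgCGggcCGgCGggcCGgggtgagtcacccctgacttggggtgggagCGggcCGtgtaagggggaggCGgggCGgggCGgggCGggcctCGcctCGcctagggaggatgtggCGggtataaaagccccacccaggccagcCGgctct
The windows of ANXA10 and ANXA1 hold no CG pair, that of ANXA9 holds 4 and that of ANXA2 holds 28. The median over 35116 RefSeq windows of this length is 11, and 6.06% hold none.

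HCT116 cells carried transcripts of most of the 10 genes. ANXA8, at 0.0536 FPKM in PF and 0.0878 in PJ, is not among these 10. In both libraries 8 of the 10 genes reached 1 FPKM, against 57.3% of protein-coding symbols and 27.9% of all symbols. In PF alone all 10 did, and in PJ 8. Their summed level was 934 FPKM in PF against 1044 in PJ (mean 989 ± 78.0, SD, n = 2). ANXA1, ANXA2 and ANXA5 made up 69.3% of that sum in PF and 72.3% in PJ.

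**Figure D1:**
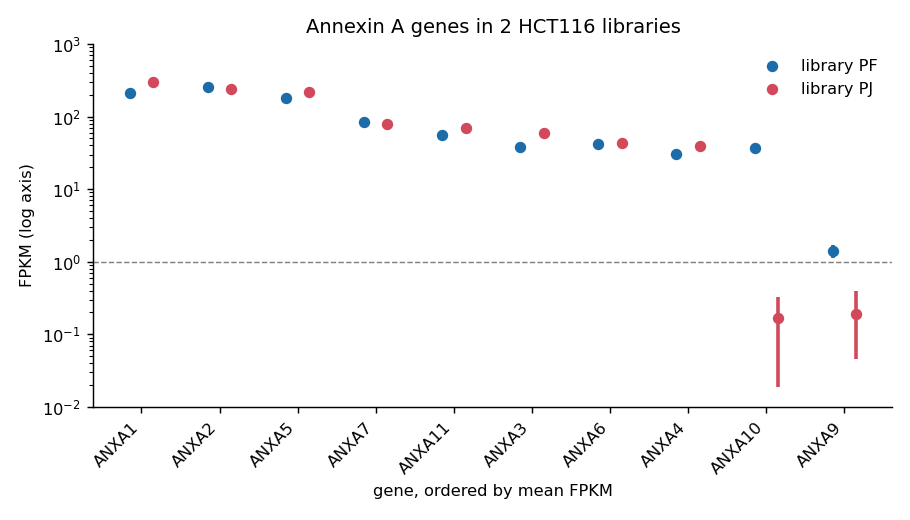
FPKM of each annexin gene (log axis) in libraries PF and PJ, ordered by mean. Points mark the estimates, vertical lines the deposited bounds and a dashed line 1 FPKM. The 8 genes on the left lie above 30 FPKM in both libraries, while ANXA10 and ANXA9 lie above 1 FPKM only in PF.

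The 3 most abundant members each have a well-known partner or ligand. ANXA1 (ENSG00000135046.9, hg19 chr9:75766673-75785309), a mediator of glucocorticoid action that signals through formyl peptide receptors, stood at 209 FPKM in PF (bounds 206 to 216) against 300 in PJ (296 to 309; mean 254 ± 64.1, SD, n = 2). ANXA2 (ENSG00000182718.11, chr15:60639333-60695082), which forms a complex with S100A10 at the plasma membrane, stood at 258 FPKM in PF (254 to 267) against 239 in PJ (236 to 248; mean 248 ± 13.6, SD, n = 2). ANXA1 was the lower of the pair in PF and the higher in PJ, so their order did not hold between libraries. ANXA5 (ENSG00000164111.9, chr4:122589110-122618268), whose protein is the usual probe for phosphatidylserine on dying cells, was at 181 FPKM in PF (174 to 187) against 217 in PJ (212 to 225; mean 199 ± 25.9, SD, n = 2). Its rank was 3 in each library. Its range did not overlap that of ANXA2 or ANXA7, its neighbours by mean, but did overlap that of ANXA1. By mean level ANXA1 lay at the 98.5 percentile of protein-coding symbols, ANXA2 at the 98.4 and ANXA5 at the 97.96.

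The ANXA2 level is uncertain because of its copies. The row of ANXA2P2 (ENSG00000231991.3, chr9:33624223-33625532) was listed at 436 FPKM in PF against 420 in PJ, above ANXA2 itself by a factor of 1.69 and 1.76. The other copies were low: ANXA2P1 was at 11.9 and 12.9 FPKM and ANXA2P3 at 3.69 and 3.005. A pseudogene row of this kind can receive reads of the parent gene, since long stretches are identical, and the tables do not say how such reads were divided. The 4 rows summed to 710 FPKM in PF against 674 in PJ, of which the ANXA2 row held 36.3% and 35.4%. Among the 10 annexins the ANXA2 row accounted for 27.6% of the summed level in PF and 22.8% in PJ (25.2% ± 3.4, SD, n = 2). With the copies added to it and to the sum, its share was 51.2% and 45.6% (48.4% ± 4.0, SD, n = 2), and ANXA2 then exceeded ANXA1 in both libraries. How much of the ANXA2P2 value came from ANXA2 transcripts was not tested. FPKM of rows of different length do not add up to a gene's level, so these sums and the order against ANXA1 are rough.

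**Figure D2:**
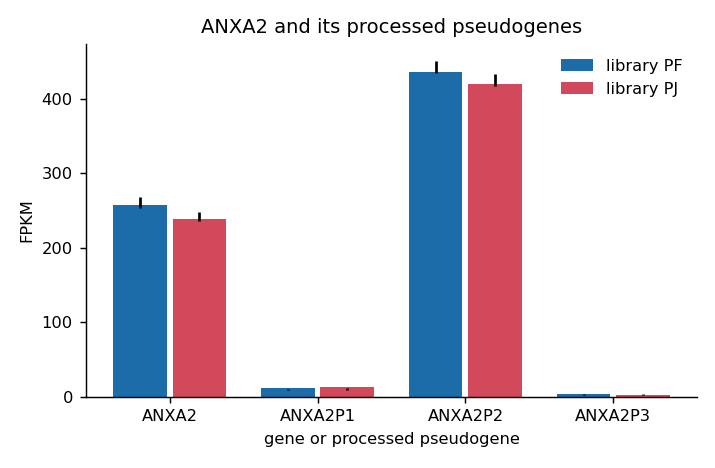
FPKM of ANXA2 and its 3 processed pseudogenes in libraries PF and PJ, with bars for the estimates and black lines for the deposited bounds. ANXA2P2 stands highest in both libraries, at 436 and 420 FPKM, and ANXA2P1 and ANXA2P3 lie near the bottom of the axis.

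The members with long glycine- and proline-rich tails came next. ANXA7 (ENSG00000138279.10, chr10:75135203-75173834), the synexin of secretory granules, was at 83.3 FPKM in PF (80.5 to 86.6) against 77.8 in PJ (74.7 to 81.0; mean 80.5 ± 3.9, SD, n = 2). Its bounds overlapped between libraries. ANXA11 (ENSG00000122359.12, chr10:81910645-81965433), which binds the EF-hand proteins PDCD6 and S100A6 and tethers RNA granules to lysosomes, was at 55.7 FPKM in PF against 68.7 in PJ (mean 62.2 ± 9.2, SD, n = 2). Both ANXA11 estimates lay above their own upper bounds, 54.8 and 66.9, so those bounds are a poor guide to its precision. For the other 9 genes each estimate lay within its bounds. Both genes sit on chromosome 10, and their coding sequences, 1467 and 1518 bases, stop codon included, are longer than the 963 to 1041 bases of ANXA1, ANXA2, ANXA3, ANXA4, ANXA5, ANXA9 and ANXA10.

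The mid-level group held ANXA3, ANXA6 and ANXA4. ANXA3 (ENSG00000138772.8, chr4:79472673-79531597), an abundant annexin of neutrophils, was at 38.0 FPKM in PF (35.95 to 40.1) against 59.4 in PJ (56.8 to 62.4; mean 48.7 ± 15.2, SD, n = 2). ANXA6 (ENSG00000197043.8, chr5:150480273-150537443) was at 41.6 FPKM in PF (39.8 to 43.4) against 43.8 in PJ (41.8 to 45.9; mean 42.7 ± 1.6, SD, n = 2). Alone in the family ANXA6 carries a duplicated core, and its coding sequence is the longest, at 2022 bases. ANXA4 (ENSG00000196975.9, chr2:69947923-70053596), found along the membranes of secretory epithelia, was at 30.1 FPKM in PF (27.6 to 32.7) against 39.0 in PJ (36.04 to 41.9; mean 34.6 ± 6.2, SD, n = 2). Without scaling between the libraries, the PJ to PF ratio of ANXA6, 1.05, was the nearest to 1 of the 10 genes. ANXA3 ranked below ANXA6 in PF and above it in PJ. Along the order of means, 5 of the 9 neighbouring pairs had overlapping ranges: ANXA1 with ANXA2, ANXA11 with ANXA3, ANXA3 with ANXA6, ANXA4 with ANXA10, and ANXA10 with ANXA9.

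ANXA10 was high in one library and nearly missing from the other. ANXA10 (ENSG00000109511.6, chr4:169013666-169108841), an atypical annexin that has lost most of the calcium-binding residues, was at 36.6 FPKM in PF (bounds 34.4 to 38.8) against 0.165 in PJ (0.0188 to 0.324). In PF it stood beside ANXA3 and ANXA4. In PJ it was the lowest member by its estimate, with bounds that overlapped those of ANXA9 (0.0463 to 0.391). The lower bound in PF exceeded the upper bound in PJ by a factor of 106. On the log2(FPKM + 1) scale the PJ to PF difference was -5.01, and 51 of 15736 symbols with a mean of at least 1 FPKM, or 0.324%, lay at that value or lower. Among 3070 protein-coding symbols at 30 FPKM or above in PF, a limit set after the value of ANXA10 was seen, 7 were under 1 FPKM in PJ. These 7 were MAL2, ACSL5, SYT1, IL18, ANXA10, SLC38A5 and HPX. Symbols high in PJ and low in PF were not counted in this way.

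ANXA9 (ENSG00000143412.5, chr1:150954493-150968110), the other atypical member, whose calcium sites are degenerate, was also lower in PJ, at a far lower level. It was at 1.42 FPKM in PF (1.11 to 1.73) against 0.190 in PJ (0.0463 to 0.391), and the bounds did not overlap. Its mean of 0.804 FPKM kept it out of the comparison of tested symbols. Its difference was -1.02 on the log2(FPKM + 1) scale, which understates changes at low levels. ANXA10 and ANXA9 were thus the 2 members that missed 1 FPKM in a library, and both missed it in PJ.

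Between the libraries, 9 members had a mean of at least 1 FPKM. None of these was 2-fold or more higher in PJ, where 10.4% of all tested symbols, those with such a mean, were. A single member, ANXA10, was 2-fold or more lower, where 5.22% of all tested symbols were. The differences of the other 8 were small: ANXA3 had 0.63, ANXA1 0.52, ANXA4 0.36, ANXA11 0.30, ANXA5 0.27, ANXA6 0.07, ANXA7 -0.10 and ANXA2 -0.11 on the log2(FPKM + 1) scale. The median of the 9 was 0.27, beside 0.22 for all tested symbols, so most symbols, annexin or not, stood slightly higher in PJ. The median ratio of symbols expressed in both libraries was 1.19. After that ratio was divided out, 5 members lay above 0 and 4 below, ANXA6 changing sign from 0.07 to -0.17. ANXA10 then lay at -5.26, still the single member 2-fold lower, where 8.01% of all tested symbols then were. Deposited bounds, not scaled by that ratio, lay apart for 7 of the 9, beside 62.9% of tested symbols with a single row. PJ was higher for 5, beside 44.5% of those symbols, and lower for 2 (ANXA2 and ANXA10), beside 18.3%. The 5 include ANXA11, whose estimates lay above their own upper bounds. These bounds describe 1 library's estimate and hold no variation between cultures.

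**Figure D3:**
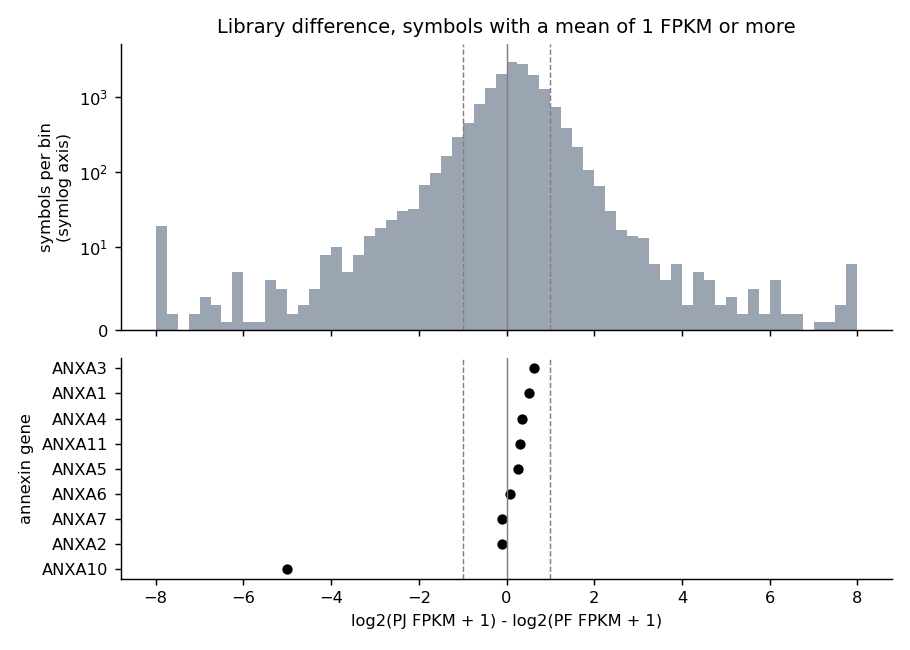
Differences between libraries, log2(PJ FPKM + 1) minus log2(PF FPKM + 1), for all 15736 symbols with a mean of at least 1 FPKM (upper panel, symbols per bin on a symlog axis, the end bins also holding values beyond 8) and for the 9 annexins among them (lower panel). Dashed lines mark 2-fold. ANXA10 lies at -5.01 and the other 8 lie between the dashed lines.

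Epithelial markers also differed between the libraries. Of the 11, PJ had the lower value for 8, whereas 65.8% of all tested symbols were higher in PJ. Of the 10 with a mean of at least 1 FPKM, 4 were 2-fold or more lower in PJ, where 5.22% of all tested symbols were. None was 2-fold or more higher, where 10.4% were. The 4 lower ones included the transcription factor gene ELF3 (76.3 and 1.02 FPKM) and the E-cadherin gene CDH1 (21.9 and 1.80). The others were CLDN4 (33.3 and 11.3) and KRT8 (760 and 280). KRT19 (306 and 325 FPKM) and CLDN3 (4.58 and 5.47) were not lower, nor was VIL1 (0.159 and 0.314). The fibroblast markers summed to 7.55 FPKM in PF against 3.98 in PJ, endothelial markers to 3.32 and 4.82 and immune markers to 0.549 and 0.476, with LUM and MS4A1 listed at 0 in PJ and PDGFRA at 0 in PF. The part of these differences in the ANXA10 result was not tested. In bulk RNA, fewer cells that make ANXA10 and less ANXA10 RNA per cell cannot be told apart.

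Rows near ANXA9 and ANXA10 were examined next. Within 100 kb of ANXA9, 6 rows had a mean of at least 1 FPKM, and all 6 were higher in PJ, as 65.8% of all tested symbols were. Among them the ceramide synthase gene CERS2 was at 67.4 FPKM in PF against 130 in PJ, the phosphodiesterase gene PRUNE at 7.12 and 13.997 and the histone methyltransferase gene SETDB1 at 10.8 and 13.3. Around ANXA10 no other row had that mean, and the one other row listed within 100 kb that does not overlap it, the helicase gene DDX60, was at 1.03 FPKM in PF against 0.592 in PJ. Rows overlapping a member were found for 4 genes (ANXA2, ANXA4, ANXA7 and ANXA10). Strand was not stated for these libraries, so reads of overlapping rows cannot be told apart, but the highest such row was at 1.64 FPKM.

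RefSeq windows before the start site matched all 10 genes, with 14 windows in all because ANXA4, ANXA6 and ANXA11 have several. The number of CG pairs ran from 0 to 36, and 8 of the 14 windows were above the median of 11. The windows of ANXA1 and ANXA10 both lack CG pairs. ANXA1 was among the highest members in both libraries, and ANXA10 was high in PF only. Whether CG pairs bear on these levels was not tested. The letters TATAAA, on one strand or the other, occur in the windows of ANXA1, ANXA10 and ANXA2 and in 1 of the 3 windows of ANXA11. That is 4 of the 14 windows, beside 10.7% of all windows. The letters TGANTCA, an AP-1 type motif, were found in the ANXA2 window alone (6.57% of all windows), and CCAAT on either strand in 4 windows (32.0% of all windows). TGANTCA reads alike on both strands. No match overlapped a match of another of these motifs in any of the 14 windows, and a match is a description of the window only.

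**Figure D4:**
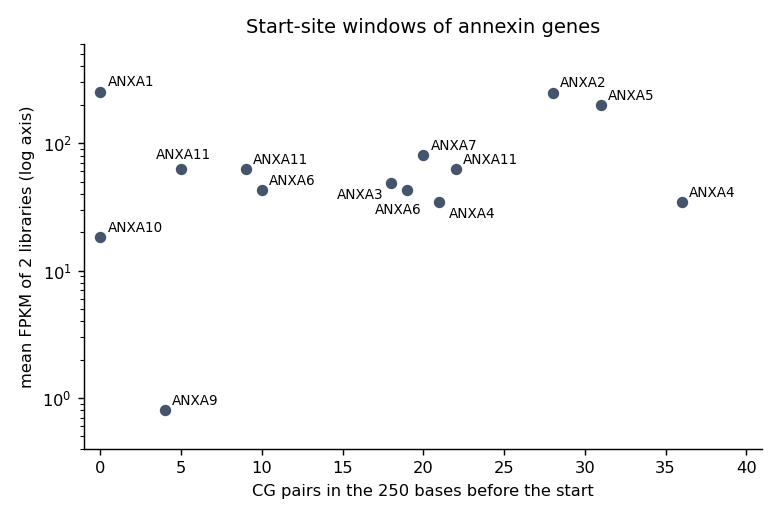
Mean FPKM of each annexin gene over both libraries (log axis) against the number of CG pairs in the 250 bases before each of its RefSeq start sites, 1 point per window and 14 windows. ANXA1 and ANXA10 both sit at 0 CG pairs, at means of 254 and 18.4 FPKM.

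Genes of annexin partners and pathways were described as 6 lists with 24 genes. Of these, 19 reached 1 FPKM in both libraries, beside 57.3% of protein-coding symbols. Among the 19, PJ was 2-fold or more higher for 2 (S100A10 and PLAU), where 10.4% of all tested symbols were, and 2-fold or more lower for 2 (S100A4 and MYOF), where 5.22% were. Their median difference was 0.26 on the log2(FPKM + 1) scale, beside 0.22 for all tested symbols. With 2 genes in each direction, no departure from the background is read from these counts. All 4 S100 partners were abundant. S100A6, a partner of ANXA11 and other annexins, was at 715 FPKM in PF against 890 in PJ, and S100A10, which binds the tail of ANXA2, was at 189 and 392. ANXA2 itself was 258 and 239 FPKM, so the level of S100A10 was below that of the ANXA2 row in PF and above it in PJ. Against ANXA2 with its copies added, 710 and 674 FPKM, S100A10 was the lower in both libraries. That sum counts every copy row as ANXA2, which was not tested. S100A11, the partner of ANXA1, was at 110 and 132 FPKM, and S100A4 was at 285 and 136 FPKM. The penta-EF-hand partners PDCD6 (84.9 and 105 FPKM) and SRI (58.8 and 104) which bind ANXA7 and ANXA11, were also present in both libraries.

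The receptors through which ANXA1 signals were not part of this picture. FPR1 was at 0.0861 FPKM in PF against 0.000923 in PJ, FPR2 at 0.00322 and 0.0113, and FPR3 was under 0.1 FPKM in both. The row of ANXA2R, a reported receptor for ANXA2, was likewise low, at 0.0377 and 0.167 FPKM. Of the plasminogen system, which ANXA2 and S100A10 bring to the cell surface, 4 of 5 genes passed. PLAU, the urokinase gene, was at 4.76 FPKM in PF against 36.2 in PJ, its receptor gene PLAUR at 15.02 and 13.2, and the gene of plasminogen itself, PLG, at 0.0168 and 0.0229.

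Genes of membrane repair passed in 8 of 9 cases, with only DYSF under 1 FPKM in both libraries. The calpain subunit gene CAPNS1 was at 199 FPKM in PF against 207 in PJ, and the ALIX gene PDCD6IP at 89.3 and 120. MYOF, the myoferlin gene, was the one member of this list past 2-fold, with 54.1 FPKM in PF against 23.4 in PJ. PLA2G4A, which encodes a cytosolic phospholipase A2, was at 2.78 and 5.76 FPKM.

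**Figure D5:**
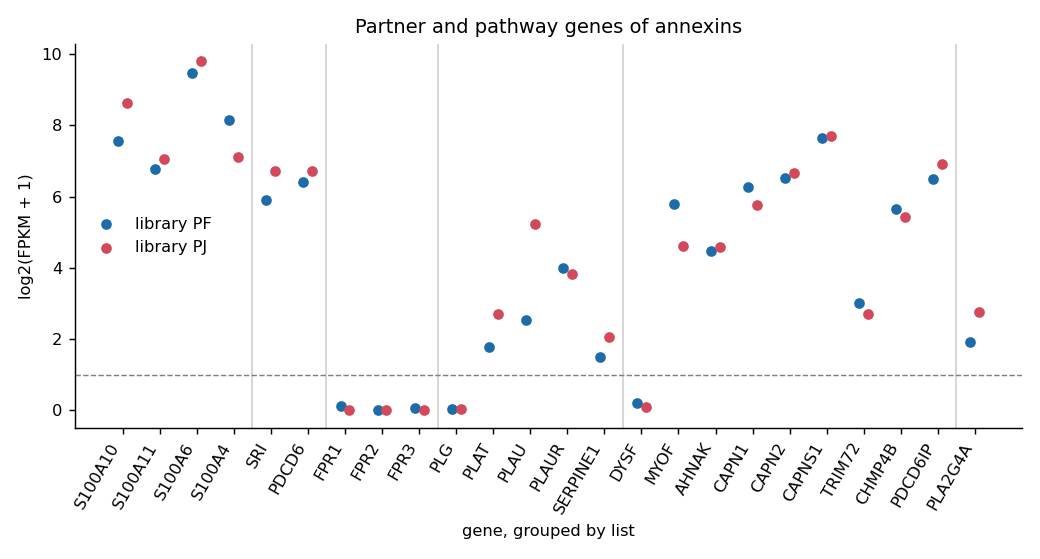
Level, log2(FPKM + 1), of 24 partner and pathway genes of annexins in libraries PF and PJ, grouped by list, with a dashed line at 1 FPKM. The S100 partners stand highest as a group, the 3 formyl peptide receptor genes lie at the bottom and PLAU shows the widest gap between libraries.

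The symbols nearest to ANXA1 in level, by Euclidean distance of log2(FPKM + 1) over the 2 libraries, were CHCHD10 (209 and 303 FPKM, distance 0.016), the pseudogene row RP11-632C17__A.1 (213 and 311, distance 0.060) and ACTN4 (209 and 287, distance 0.061). Those nearest to ANXA10 were AL359771.1, AL353354.1 and SNORA31, rows that span 101 to 140 bp, at distances of 0.22 to 0.23. Genes this short receive unstable FPKM values, and no other symbol came closer to ANXA10. With 2 libraries such a distance compares a pair of levels and no more.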

How the data were processed

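RNA of 2 HCT116 libraries was sequenced. Per the submitters' processing notes, TopHat2 2.0.8b, TopHat and Cufflinks were used with hg19; which Cufflinks version and annotation were used is not given in the sources used here. Files deposited by the authors hold FPKM with a lower and an upper confidence bound per gene, per the file headers. The column names give no level, which was taken as 95%. FPKM depends on the library total, so abundant RNAs can lower all other values.

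Rows sharing a symbol were summed, and rows with status FAIL (23 in PF, 20 in PJ, no annexin) were treated as missing. A gene was called expressed at 1 FPKM in both libraries. Libraries were compared by log2 ratios of PJ to PF with a pseudocount of 1, for symbols with a mean of at least 1 FPKM; 2-fold differences were counted without a test. Coordinates are hg19, counted from 1. Gene types and coding sequences came from GENCODE release 29, matched by identifier for 88.7% of rows, and start-site windows from RefSeq (GRCh38.p14). Copies were aligned locally (match 1, mismatch -2, gap opening -5, extension -1). Text names all 10 annexins, overlapping and copy rows, the highest 2 genes of each partner list, FPR1 and FPR2, and the 3 symbols nearest in level to the highest and the most changed member. Other partner genes, markers, neighbours, ANXA2R and the motifs were picked for the text after values were seen. The members and lists were chosen with earlier results of these data known. Python 3.11.15, numpy 2.4.6, pandas 2.3.3, Biopython 1.88 and matplotlib 3.10.9 were used. Normal colon data mentioned by the design text were not used here.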

Additional observations from a re-analysis of the deposited data

How the results depend on the processing

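The count of expressed annexins was 8 at thresholds of 5 and 10 FPKM, with the lower bound in place of the estimate and with FAIL rows counted, and 10 at 0.1 FPKM. Taking 1 library alone, it was 8 to 10, the summed level 934 to 1044 FPKM and the ANXA2 share 22.8% to 27.6%. The count of members 2-fold apart stayed at 1 under both smaller pseudocounts and both scalings and was 2 with no filter on low values, which lets ANXA9 in. With the pseudogene rows added the ANXA2 share was 48.4%. The median difference of the members was 0.018 after division by the median ratio, since that ratio removes 0.25 on the log2 scale, and 0.17 to 0.27 under the other settings. ANXA9 lay at -2.39 with a pseudocount of 0.1 and -2.83 with 0.01, and ANXA10 at -7.11 and -7.71. No paired analysis was possible because both libraries belong to 1 group. The unknown depth limits the precision of ANXA9 and, in PJ, of ANXA10.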

Other observations

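ANXA10 is known from gastric epithelium, so 12 other genes of that tissue were looked up after its values had been seen. None of the 12 reached 1 FPKM in either library, while 57.3% of protein-coding symbols reached it in both. PJ had the lower value for 7 of the 12 and the higher for 3, at levels too low for the order to be read. The trefoil factor genes TFF1 and TFF2, at 0.000335 and 0.0422 FPKM in PF, were listed at 0 in PJ, and the gastric mucin gene MUC5AC was listed at 0 in PF and at 0.00599 FPKM in PJ. GKN1 and SOX2 were listed at 0 in both libraries. The highest of the 12 was VSIG1, a junction protein gene, at 0.0616 FPKM in PF against 0.563 in PJ. The cathepsin gene CTSE was at 0.0223 and 0.00118 FPKM and the gastric claudin gene CLDN18 at 0.00753 and 0.0648. ANXA10 itself was at 36.6 FPKM in PF, and its relation to these genes was not tested.

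ANXA8 and its near-identical copies ANXA8L1 and ANXA8L2, which lie outside the 10 genes described, were low in both libraries, with PF values of 0.0536, 0.0209 and 0.0379 FPKM and PJ values of 0.0878, 0.0680 and 0.0765 FPKM, each with a lower bound of 0. Reads of these copies cannot be told apart with certainty.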
